A study of Mus musculus with 5 samples.

Results

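The genes described here are the basal factor, desmosome and hemidesmosome genes of stratified epithelium, 10 genes chosen by name out of the 19938 genes that a probe set named alone. Each of the 10 was measured by 1 such probe set. They are Trp63, the desmosome genes Dsg3, Dsc3, Pkp1 and Perp, the hemidesmosome genes Col17a1, Itgb4 and Dst, and, kept apart because glandular epithelium also uses them, the desmosome genes Dsp and Jup. Total RNA from gut of male ddY mice aged 5 weeks was hybridised to Affymetrix Mouse Gene 1.0 ST arrays, with 1 array for each of 5 groups. Every mouse was dosed by mouth on 2 occasions 0.5 hours apart, and tissue was taken 4 hours after the last dose. The groups were GA+GA (gum arabic given both times, the control), LG21+GA (Lactobacillus gasseri OLL2716, then gum arabic), GA+Asp (gum arabic, then aspirin), Tep+Asp (teprenone, then aspirin) and LG21+Asp (the same Lactobacillus strain, then aspirin). RNA came from a portion of the gut, and the sources used here do not give the number of mice behind an array. With 1 array in each group no difference can be set against the spread between animals, so none was tested.

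Stratified epithelium is built in layers on a basement membrane. Basal cells are held to that membrane by hemidesmosomes and to one another by desmosomes, in which cadherins (desmogleins and desmocollins) cross the membrane and plaque proteins tie them to keratin filaments. The transcription factor p63 keeps the basal layer in being and switches on several of these junction genes. In the mouse, the forestomach is lined by such an epithelium, while the glandular stomach and the intestine carry a single layer of columnar cells that makes desmosomes from a smaller set of genes.

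Upstream sequence in the RefSeq promoter table was used for 4 of the 10 genes, Dsg3 and Dsc3 not among them. Windows on 1 chromosome were left out, so the promoter table may hold more of the 10. The 250 bases before the start are printed for a gene of each class, Col17a1 for stratified epithelium and Dsp for the shared genes. They show how different in base composition the starts of single genes can be. Both are from GRCm38.p6, 5′ to 3′ on the strand of the gene, chr19:47692043-47692292 on the minus strand for Col17a1 and chr13:38151044-38151293 on the plus strand for Dsp. Capitals mark the letters GGGCGG, the core of a GC box, and TATAAA, the core of a TATA box, searched on both strands.
Col17a1: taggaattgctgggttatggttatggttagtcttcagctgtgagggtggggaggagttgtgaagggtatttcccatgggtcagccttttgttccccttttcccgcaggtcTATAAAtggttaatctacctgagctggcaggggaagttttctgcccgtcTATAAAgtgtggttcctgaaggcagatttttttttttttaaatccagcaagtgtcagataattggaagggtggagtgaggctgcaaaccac
Dsp: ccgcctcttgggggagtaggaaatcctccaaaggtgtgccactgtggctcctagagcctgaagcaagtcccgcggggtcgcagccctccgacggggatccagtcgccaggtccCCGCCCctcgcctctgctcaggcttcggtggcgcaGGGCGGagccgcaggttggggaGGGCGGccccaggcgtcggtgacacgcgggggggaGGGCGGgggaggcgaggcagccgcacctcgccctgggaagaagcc
The Col17a1 window held 2 matches to TATAAA, 0 to GGGCGG and 2 CpG dinucleotides, with 46% G or C. The Dsp window held 4 matches to GGGCGG, 0 to TATAAA and 22 CpG, with 72.4% G or C. Jup, the other shared gene, had 2 matches to GGGCGG, 0 to TATAAA and 13 CpG in its window. Dst, counted with stratified epithelium, had a window at each of 2 starts. One had 22 CpG, 4 matches to GGGCGG and 68.8% G or C, close to Dsp. The other had 5 CpG and 0 matches, and the single probe set of Dst gave 1 value for the gene. The windows thus do not separate the classes. Among all 32851 windows of this length, GGGCGG was present in 32.7% and TATAAA in 12.4%, and the median was 6 CpG. These matches describe the letters only.

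The tissue label was checked with marker genes. Defining genes of gastric glands were near the top of the scale on every array: the mucin Muc5ac stood between 13.29 and 13.34 and Atp4a, the acid pump, between 13.44 and 13.47. Sis, the intestinal sucrase-isomaltase, stood between 4.65 and 4.97, a range that includes the 4.91 of Xist, a transcript male tissue does not express, and Cdx2, the intestinal transcription factor, between 6.40 and 6.43. Other genes of the intestinal list were well above Xist, with Apoa4 between 10.66 and 10.69, Lgr5, which gastric glands also make, between 8.79 and 8.91 and Vil1 between 8.12 and 8.20. Gastric gland transcripts were thus abundant, and the intestinal markers were mixed. Of the markers of stratified epithelium, the basal keratin Krt5 stood between 7.58 and 9.00 and the forestomach keratin Krt13 between 7.97 and 9.38. Others were dimmer in LG21+Asp, with Krt14 at 6.77, Trp63 at 6.70 and Krt4 at 6.87. These 3 lay around the 6.75 to 6.88 of the skin appendage marker Krt71. Krt15 (7.07), Krtdap (7.89) and Lor (7.68) stood above Krt71 in LG21+Asp. Not every marker thus shows the tissue on that array. Array medians lay between 6.94 and 6.98. The deposited values are RMA expression values on the log2 scale, and all levels and differences below are on that scale.

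Most of the 10 genes differed little between the arrays. A range is the highest minus the lowest of the 5 values, and its median was 0.17 over the 8 genes of stratified epithelium and 0.05 over Dsp and Jup, beside 0.09 over all genes. Dsg3 had a range of 1.05, Dsc3 of 0.42 and Pkp1 of 0.30, and the other 7 had ranges from 0 to 0.20. A range of at least 0.32 was found for 2 of the 10, Dsg3 and Dsc3, beside 5.41% of all genes, and a range of at least 1.5-fold for Dsg3 alone, beside 1.65%. The 5 genes Trp63, Dsg3, Dsc3, Pkp1 and Col17a1 had means below 7.41, the median of all genes, in the dim part of the scale. The remaining 5 lay above it, and all 10 lay above Xist on every array. The skin appendage markers Krt25 (5.89), Tchh (6.45 to 6.51) and Krt71 (6.75 to 6.88) lay above Xist too. Trp63, Dsg3 and Dsc3 never passed the highest value of Krt71, while Pkp1 and Col17a1 did on every array. Lying above Xist thus does not show that a gene was detected.

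**Figure D1:**
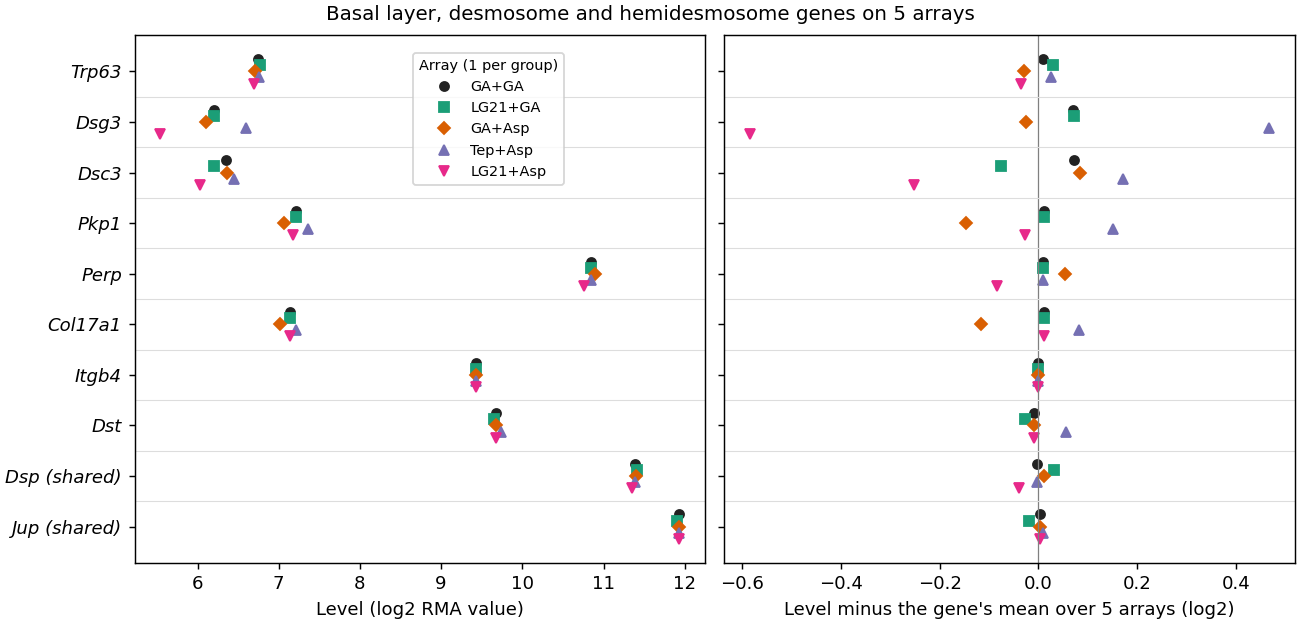
Levels of the 10 genes on the 5 arrays, as log2 RMA values (left) and as each value minus that gene's mean over the 5 arrays (right). Each point is 1 array; Dsg3 runs from 5.54 in LG21+Asp to 6.59 in Tep+Asp, while Itgb4 has a single value of 9.43.

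Trp63 encodes p63, the factor of the basal layer. Its value was 6.74 in the control, 6.76 in LG21+GA, 6.70 in GA+Asp, 6.76 in Tep+Asp and 6.70 in LG21+Asp. Its range of 0.07 was reached or passed by 64.4% of all genes, so the measured values hardly differed. They lay around the level of the skin appendage marker Krt71 (6.75 to 6.88), so they cannot show that the transcript did not differ.

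Among the desmosome genes of stratified epithelium, Dsg3, the desmoglein of the basal and lower layers and the main target of autoantibodies in pemphigus vulgaris, differed most. It stood at 6.20 in GA+GA, 6.20 in LG21+GA, 6.10 in GA+Asp, 6.59 in Tep+Asp and 5.54 in LG21+Asp. Tep+Asp was thus high and LG21+Asp low, with the other 3 arrays within 0.10 of one another. A range as wide was seen in 0.787% of all genes. Dsc3, the desmocollin that pairs with it, stood at 6.35 in GA+GA, 6.21 in LG21+GA, 6.36 in GA+Asp, 6.45 in Tep+Asp and 6.03 in LG21+Asp. The same 2 arrays were at the ends of its order, over a narrower span. Pkp1, plakophilin 1, a plaque protein that strengthens desmosomes of the upper layers, stood at 7.22 in GA+GA and in LG21+GA, 7.06 in GA+Asp, 7.36 in Tep+Asp and 7.18 in LG21+Asp. Tep+Asp was again the highest, but the lowest array was GA+Asp. Perp, a tetraspan membrane protein of desmosomes and a p63 target, stood at 10.85 in GA+GA, LG21+GA and Tep+Asp, 10.89 in GA+Asp and 10.76 in LG21+Asp. Its highest array was GA+Asp, and its range of 0.14 was reached by 32.2% of all genes.

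The hemidesmosome genes kept closer together. Col17a1, the collagen XVII that spans the basal membrane, stood at 7.14 in GA+GA, LG21+GA and LG21+Asp, 7.02 in GA+Asp and 7.21 in Tep+Asp. As for Pkp1, GA+Asp was the lowest and Tep+Asp the highest. Dst, dystonin, whose epithelial form BP230 anchors keratin to hemidesmosomes and whose other forms work in neurons and muscle, stood at 9.67 in GA+GA, GA+Asp and LG21+Asp, 9.65 in LG21+GA and 9.74 in Tep+Asp. Itgb4, the integrin beta 4 chain, which glandular epithelium also makes, had the identical value of 9.43 on all 5 arrays. Exact equality is common in these files: 77.7% of genes had the same value on at least a pair of arrays, and 6.84% on all 5. A tie, or a difference of a few hundredths, is therefore weak ground for saying that a transcript did not differ.

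Dsp, desmoplakin, links desmosomes of every kind to intermediate filaments. It stood at 11.38 in GA+GA, 11.42 in LG21+GA, 11.40 in GA+Asp, 11.38 in Tep+Asp and 11.35 in LG21+Asp. Jup, plakoglobin, which binds the tails of desmosomal cadherins, stood at 11.92 in GA+GA, GA+Asp and LG21+Asp, 11.90 in LG21+GA and 11.93 in Tep+Asp. Neither gene followed the spread of Dsg3 and Dsc3. The root-mean-square difference between the centred profiles of Dsg3 and Dsp was 0.32 and that of Dsg3 and Jup 0.34, beside 0.34 for the spread of Dsg3 around its own mean. It was 0.32 for Trp63, Col17a1 and Dst, 0.34 for Itgb4, 0.31 for Perp, 0.29 for Pkp1 and 0.22 for Dsc3. With genes of small range this measure mostly gives the spread of Dsg3, so it does not set Dsp and Jup apart. Among the genes assigned to stratified epithelium, Trp63, Perp, Itgb4 and Dst also had small ranges, 0.07, 0.14, 0 and 0.08 in that order. The 4 widest ranges among the 10 were those of Dsg3, Dsc3, Pkp1 and Col17a1.

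For Dsg3 and Dsc3 the widest contrast was that of LG21 and teprenone, each before aspirin. Pkp1 and Col17a1 differed most between Tep+Asp and GA+Asp. In LG21+Asp, Dsg3 was 2.07-fold lower than in Tep+Asp (-1.05) and Dsc3 1.34-fold lower (-0.42). Pkp1 differed by -0.18, Perp by -0.09, Col17a1 by -0.07, Dst by -0.07 and Trp63 by -0.06. The low ends of Dsg3 and Dsc3 were dim. In LG21+Asp, Dsg3 (5.54) lay below the skin appendage marker Krt25 (5.89) and Dsc3 (6.03) below Tchh (6.45 to 6.51). The true size of their folds is therefore uncertain. None of the 10 was higher in LG21+Asp, 9 were lower, beside 33.6% of all genes, and Itgb4 was equal. The smallest of these differences, that of Jup (-0.01), turned positive under quantile normalization (0.01) and cyclic loess (0.0002), as did that of Itgb4 (0.01 under both). At least 1.5-fold lower was 1 of 10, Dsg3, beside 0.381% of all genes, and 0 were at least 1.5-fold higher, beside 0.176%. The median was -0.08 over the 8 genes of stratified epithelium and -0.02 over Dsp and Jup, beside 0.00 over all genes. The mean over the 8 was -0.24, drawn down by Dsg3. At a lower mark of 0.32, 2 of the 10, Dsg3 and Dsc3, were lower, beside 0.828% of all genes, and at 2-fold Dsg3 alone, beside 0.231%.

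**Figure D2:**
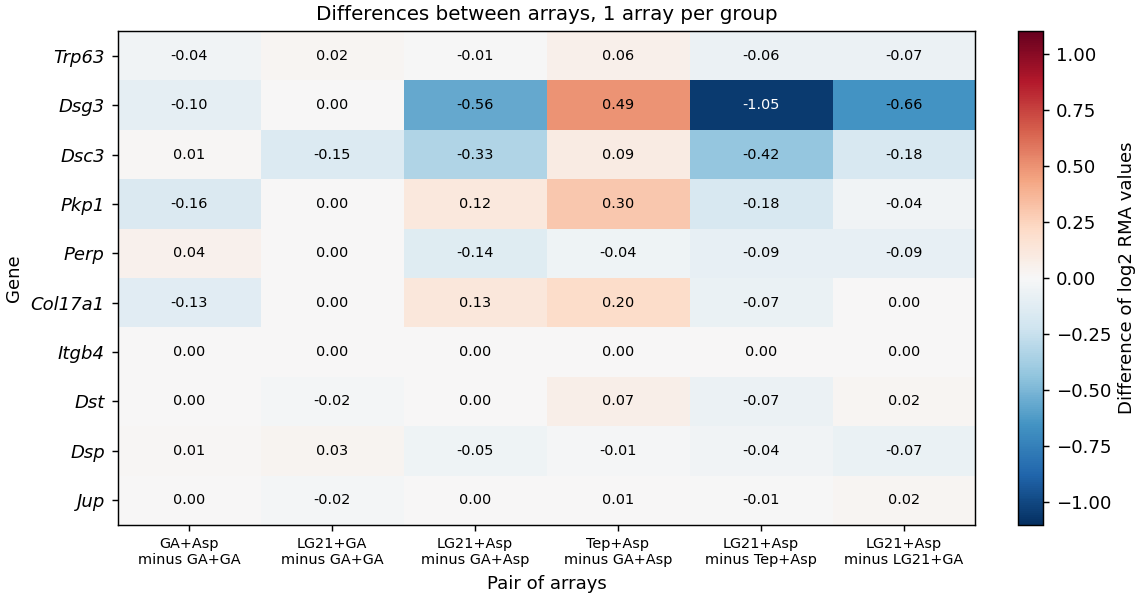
Difference of log2 RMA values for each of the 10 genes (rows) in 6 pairs of arrays (columns), with 1 array per group. Dsg3 holds the largest values, -1.05 for LG21+Asp minus Tep+Asp and -0.66 for LG21+Asp minus LG21+GA, and the rows of Trp63, Itgb4, Dst, Dsp and Jup lie 0.07 or less from 0 after rounding.

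LG21 before aspirin, against aspirin alone, is the contrast named in the title of the study. Dsg3 was 1.47-fold lower in LG21+Asp than in GA+Asp (-0.56) and Dsc3 1.26-fold lower (-0.33), so that Dsg3 lay just short of the 1.5-fold threshold. Pkp1 (0.12) and Col17a1 (0.13) differed the other way and Perp by -0.14, while Itgb4, Dst and Jup were equal. None of the 10 was 1.5-fold apart, where 0.266% of all genes were lower and 0.316% higher, and cyclic loess normalization put Dsg3 past the threshold (-0.59). Dsg3 and Dsc3, 2 of the 10, were lower by at least 0.32, beside 0.838% of all genes. The median over the 8 genes was -0.003, with 2 above 0, 4 below and 2 equal. Of all 19938 genes 7690 were above 0, 7597 below and 4651 equal.

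Teprenone before aspirin went with higher values of some of these genes than aspirin alone. Dsg3 was 1.41-fold higher in Tep+Asp (0.49), Pkp1 1.23-fold (0.30) and Col17a1 1.15-fold (0.20), and Dsc3 differed by 0.09, Dst by 0.07 and Trp63 by 0.06. None reached 1.5-fold, beside 0.321% of all genes higher and 0.0802% lower, and 1 of the 10, Dsg3, was higher by at least 0.32, beside 0.993%. The median over the 8 genes was 0.08, with 6 above 0, beside 34.6% of all genes, and over Trp63, Dsg3, Dsc3, Pkp1 and Col17a1 alone it was 0.20, with all 5 above 0. The contrasts of LG21 and of teprenone with aspirin alone share the GA+Asp array, on which Pkp1 and Col17a1 were the lowest of all 5.

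Aspirin alone and LG21 alone, each against the control, showed small differences. In GA+Asp, Pkp1 differed by -0.16 from GA+GA, Col17a1 by -0.13 and Dsg3 by -0.10, with a median of -0.02 over the 8 genes. In LG21+GA, Dsc3 differed by -0.15, and Pkp1, Perp, Col17a1 and Itgb4 were equal to the control, with a median of 0.00. None of the 10 was 1.5-fold apart in either contrast. With aspirin alone 0.853% of all genes were that much lower and 0.0602% higher, and with LG21 alone 0.492% and 0.0652%. The control array enters both contrasts.

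Aspirin in mice given LG21 compares LG21+Asp with LG21+GA, a pair with no array in common with the contrast of aspirin alone. Dsg3 was 1.58-fold lower (-0.66), the single gene of the 10 past 1.5-fold, a mark passed by 0.481% of all genes downward and 0.0201% upward. None was 2-fold lower, beside 0.201% of all genes. Dsc3 differed by -0.18, Perp by -0.09, Dsp by -0.07 and Trp63 by -0.07, and Col17a1 and Itgb4 were equal. The interaction of LG21 and aspirin, the difference between this contrast and that of aspirin alone, was -0.56 for Dsg3, -0.19 for Dsc3, -0.14 for Perp, 0.13 for Col17a1 and 0.12 for Pkp1. None of the 10 passed 1.5-fold in it, beside 0.411% of all genes below and 0.813% above, though cyclic loess put Dsg3 past it (-0.59). The median over the 8 genes was -0.01.

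The order of the arrays can also be counted without regard to size. Tep+Asp was strictly the highest of the 5 arrays for 6 of the 10 genes, Dsg3, Dsc3, Pkp1, Col17a1, Dst and Jup, beside 14.3% of all genes. LG21+Asp was strictly the lowest for 5 of the 10, Trp63, Dsg3, Dsc3, Perp and Dsp, beside 15.9%. After cyclic loess the counts were 5 and 5. GA+Asp was strictly the lowest for Pkp1 and Col17a1, 2 of 10 beside 18.0% of all genes, and after cyclic loess for 4 of the 10. LG21+GA was strictly the lowest for 2 of the 10, Dst and Jup, beside 13.8% of all genes, and LG21+Asp strictly the highest for 0, beside 22.0%, which became 1 and 2 after cyclic loess. Several of these orders rest on a few hundredths.

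Other genes of the same structures were read from fixed lists. Of 8 other desmosome genes of stratified epithelium 6 were measured, and their median in LG21+Asp minus Tep+Asp was -0.20. Of the 6, 3 were below 0, beside 33.6% of all genes, 1 was above and 2 were equal. Cdsn, corneodesmosin, which glues the outermost cells, differed by -0.49 and Ppl, periplakin, by -0.40, while the plaque gene Pkp3 and Evpl, envoplakin, were equal. The desmoglein Dsg1b, chosen after its values were seen, stood at 7.26 in GA+GA, 7.05 in LG21+GA, 7.12 in GA+Asp, 7.65 in Tep+Asp and 6.94 in LG21+Asp. It was the only 1 of these 6 at least 1.5-fold lower, beside 0.381% of all genes. The genes Dsg1a, Dsg1b and Dsg1c are near-identical copies, and a probe set naming all 3 stood at 7.31 in Tep+Asp and 5.96 in LG21+Asp. The signal of that probe set cannot be assigned to a single copy. A probe set naming Dsg1c alone, also chosen after its values were seen, stood between 4.44 and 4.76, below Xist. It differed by 0.004 in LG21+Asp minus Tep+Asp.

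The desmosome genes of glandular epithelium did not share this spread. Dsg2, the desmoglein of simple epithelia, had a range of 0.03, Dsc2, its desmocollin, of 0.09 and Pkp4 of 0.08. Over the 4 genes of that list the median in LG21+Asp minus Tep+Asp was 0.01, with 0 at least 1.5-fold apart. Of 10 other hemidesmosome and basement membrane genes 9 were measured, with a median of 0.00 in that contrast and 0 at least 1.5-fold apart. Of all genes 0.381% were that much lower and 0.176% higher. Itga6, the integrin alpha 6 chain that pairs with beta 4, had a range of 0.07, and Itgb1 of 0.09.

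Of the basal keratins, Krt5 had a wider range (1.42) than any of the 10 genes. This keratin, the main type II keratin of basal cells, stood at 8.58 in GA+GA, 8.54 in LG21+GA, 8.07 in GA+Asp, 9.00 in Tep+Asp and 7.58 in LG21+Asp. Its partner Krt14 stood at 7.09, 7.01, 6.86, 7.40 and 6.77 on the same arrays, in the order of Krt5, whereas Krt15 had a range of 0.20 with Tep+Asp below the control. Among 13 measured genes of that list, 3 were at least 1.5-fold lower in LG21+Asp than in Tep+Asp, beside 0.381% of all genes. They were Krt5, Krt14 and Trim29 (the last named after its values were seen), and the median over the 13 was -0.07. Klf5 and Fermt1, both also made outside stratified epithelium, had ranges of 0.05 and 0.02.

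Genes of the differentiated squamous layers, which earlier results of these data had shown to differ, had the same arrays at the ends of their order as Dsg3. Of the 18 genes 16 were strictly highest in Tep+Asp, beside 14.3% of all genes, and 16 strictly lowest in LG21+Asp, beside 15.9%. At least 1.5-fold lower in LG21+Asp than in Tep+Asp were 13, beside 0.381% of all genes, with a median difference of -1.99. On the linear scale they summed to 14639 in the control, 13853 in LG21+GA, 13689 in GA+Asp, 19676 in Tep+Asp and 9073 in LG21+Asp. Sprr1a, with the highest mean of the 18, weighs most in these sums and differed little between LG21+Asp and Tep+Asp (-0.10). It stood at 12.50 in the control, 12.22 in LG21+GA, 12.51 in GA+Asp, 12.60 in Tep+Asp and 12.50 in LG21+Asp. Krtdap, a secreted keratinocyte protein, stood at 10.44 in Tep+Asp and 7.89 in LG21+Asp, and Krt13 at 9.38 and 7.97. The median range of this list, 1.99, compares with 0.17 for the 8 basal and junction genes and 0.05 for the 9 genes of glandular epithelium. Perp, Itgb4 and Dst, among the 8, are not made by stratified epithelium alone. Over the 5 genes Trp63, Dsg3, Dsc3, Pkp1 and Col17a1 the median range was 0.30. No marker was at 0, since RMA values have no true zero.

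**Figure D3:**
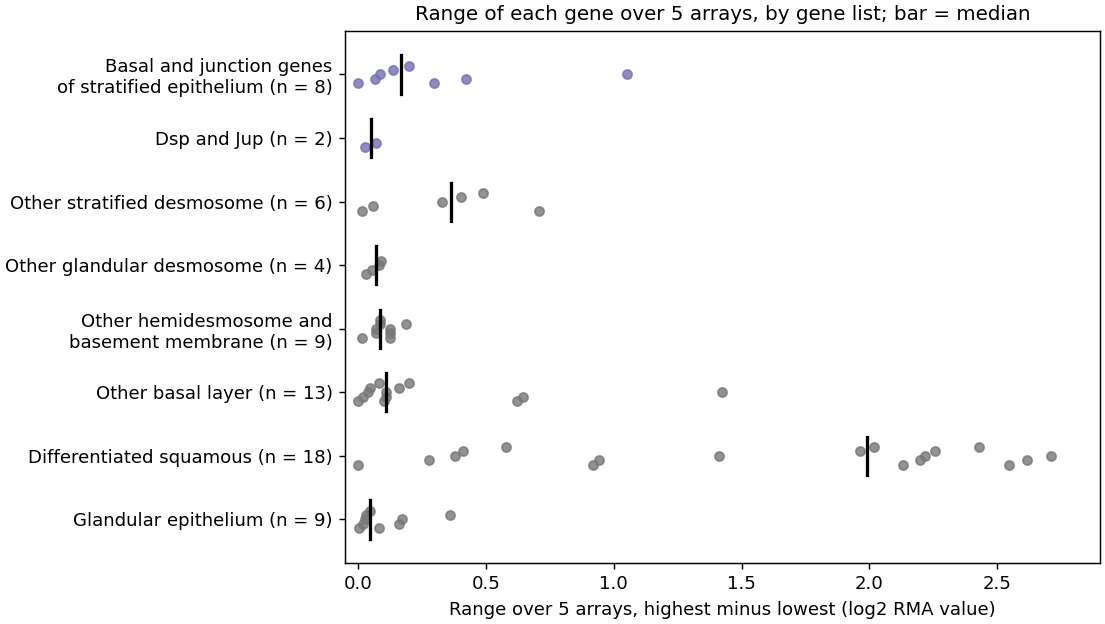
Range of each gene over the 5 arrays (highest minus lowest log2 RMA value), by gene list; each point is 1 gene and the bar is the median of the list. The differentiated squamous genes have a median of 1.99 and the lists of basal, desmosome and hemidesmosome genes medians from 0.05 to 0.36, with Krt5 (1.42) and Dsg3 (1.05) standing out.

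In bulk tissue, fewer cells of a type and less RNA per cell cannot be told apart, and the part that the amount of squamous tissue has in the values of Dsg3 and Dsc3 was not tested. Other gene lists moved with some arrays too. Fibroblast and endothelial genes were strictly highest in Tep+Asp for 6 of 6, with summed levels from 7178 in GA+GA to 8217 in Tep+Asp. Smooth muscle genes were for 5 of 6, from 15427 in GA+Asp to 16258 in Tep+Asp. Of all genes 14.3% were strictly highest in Tep+Asp. The 10 hepatocyte genes were all lowest in GA+Asp, where they summed to 1116 against 16048 in the control, and the 10 skeletal and cardiac muscle genes summed to 6195 there against 5325. Of the 9 proliferation genes, 8 were strictly highest in the control, beside 2334 of all 19938 genes, with sums of 4599 there and 3788 in GA+Asp. In GA+Asp, the array where Pkp1 and Col17a1 were lowest, 7 of the 9 were strictly lowest, beside 18.0% of all genes. Summed levels of the 9 glandular epithelium genes ran from 36021 in LG21+Asp to 36703 in GA+GA. Their part in the results was not tested. Summed levels of the 7 measured skin appendage markers ran from 502 in GA+GA to 518 in LG21+GA, and their widest range was 0.40. In LG21+GA 2 of the 7 were strictly highest and 2 strictly lowest, beside 2740 and 2750 of all 19938 genes.

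Profiles over the 5 arrays were also compared between genes. Likeness was the root-mean-square difference of centred values among 9637 named genes above the median level. The nearest to Dsg3 were Ly6g6c at 0.07, Lypd3 at 0.08 and the keratin Krt6b at 0.10. For Dsc3 they were the cornified envelope gene Lce1k at 0.06, Ppl at 0.06 and Gnpnat1 at 0.06, against a spread of 0.15 of Dsc3 around its own mean. For Pkp1 they were Serping1 at 0.03, Mri1 at 0.03 and Fzd7 at 0.03, and Mri1 was also second nearest to Col17a1 at 0.01. The median profile of the 8 genes had a spread of only 0.04, and the nearest to it were Gnb4, Pros1, Foxf1, Vipr2 and Tmco1, at 0.01 each. Profiles as flat as those of Trp63, Itgb4, Dst, Dsp and Jup have many near neighbours, and those are not named.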

How the data were processed

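Expression was measured on 5 arrays, 1 per group, and groups were taken from the sample titles. The deposited log2 values were made by the authors with RMA in Expression Console, per the labels; the design text of the series names a different Affymetrix program. RMA corrects background, normalizes between arrays and summarises probe sets. The log2 scale was read from the values, which run from 1.32 to 13.87. Program versions and a genome build are not given in the sources used here. Raw intensities were not analysed here.

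Of 35557 probe sets the platform annotation gave 21789 a single symbol, 1621 several and 12147 none. Gene identifiers matched 21698 of the single symbols to RefSeq's table for GRCm38.p6, with 0 names changed. The probe set with the highest mean stood for a gene. Log2 values were subtracted for 6 pairs of arrays with Python 3.11.15 and pandas 2.3.3, without a filter on level, and genes at least 1.5-fold apart were counted. Counting was tested on simulated data. No p-value is given, and 1 array per group limits the precision. Genes named were the 10 themselves, the 4 genes with the highest mean of a list, fixed cell type markers and nearest profiles, with exceptions stated. The genes, lists and contrasts were chosen with earlier results of these data known. Alternatives were quantile normalization and cyclic loess (limma 3.58.1, 3 iterations), the mean of probe sets, other folds, the mean in place of the median, a level filter for the share of all genes and a narrower set of 5 genes.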

Additional observations from a re-analysis of the deposited data

How the results depend on the processing

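No result could be set against replicates, so a value was said to move when it shifted by 0.1 or more on the log2 scale and a count when it changed by over 1.5 times. The 70 differences of single genes, interactions included, shifted by at most 0.04 under cyclic loess. So did the 60 without interactions under quantile normalization, which was not run for interactions. The mean of probe sets could change none of the 70, because each of the 10 genes had 1 probe set. Signs turned in 7 of 200 comparisons, exact ties left aside, each for a difference of 0.02 or less. The 200 include the 70 with the mean of probe sets, in which no sign could turn. The interaction of Dsg3 was -0.59 under cyclic loess, past 1.5-fold. Using the 5 genes Trp63, Dsg3, Dsc3, Pkp1 and Col17a1 moved the median for Tep+Asp minus GA+Asp from 0.08 to 0.20, and the mean in place of the median moved LG21+Asp minus Tep+Asp from -0.08 to -0.24. At the lower mark of 0.32, 2 genes were lower in LG21+Asp than in GA+Asp, 2 lower than in Tep+Asp and 1 higher in Tep+Asp than in GA+Asp. At 2-fold, 0 were lower in LG21+Asp than in LG21+GA. Cyclic loess put 1 gene at least 1.5-fold lower in LG21+Asp than in GA+Asp, and changed the counts of genes strictly lowest in LG21+GA from 2 to 1, strictly lowest in GA+Asp from 2 to 4, and strictly highest in LG21+Asp from 0 to 2. Among genes above the median level, 4 of 12 shares of all genes moved, among them the genes at least 1.5-fold lower with aspirin alone, from 0.853% to 0.451%. No paired analysis was possible because each group has 1 array. Trp63, Dsg3, Dsc3, Pkp1 and Col17a1 lie in the dim part of the scale, and the table held no detection calls. How far they stood above background is not known beyond the comparisons with Xist and skin appendage markers. Trp63, Dsg3 and Dsc3 did not pass the highest value of the skin appendage marker Krt71.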
